A study of Homo sapiens with 9 samples.

Results

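The genes described here build the machinery that docks secretory vesicles at a membrane and fuses them with it. They are the synaptotagmins (SYT), the synaptotagmin-like proteins (SYTL), the syntaxins (STX) and syntaxin-binding proteins (STXBP), the VAMP and SNAP proteins, the complexins (CPLX) and the RAB3 GTPases. Members were taken by gene symbol alone, with no measured value used, and number 64 of the 21417 symbols of the table. Where a gene has several transcripts, the one that averaged highest across the 9 libraries stands for it. By family they are 17 SYT, 5 SYTL, 16 STX, 8 STXBP, 6 VAMP, 4 SNAP, 4 CPLX and 4 RAB3 genes, and the STXBP group includes STXBP5-AS1, a noncoding RNA from the strand opposite STXBP5.

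All libraries were made from H9, an established human embryonic stem cell line, so every group rests on a single line. Neuroectoderm was sampled on day 5 of culture with NOGGIN (200 nM), an antagonist of BMP ligands, and SB431542 (10 µM), which blocks the receptors for activin and Nodal. Mesendoderm was sampled on day 5 of culture in mTeSR1 medium to which human BMP4 had been added at 5 ng/ml. The undifferentiated cells (hESC) were taken at day 0 from Matrigel and mTeSR1, so a lineage and its days in culture cannot be told apart against hESC. Each group has 3 libraries of ribosome-depleted total RNA. Levels are RPKM (reads per kilobase of transcript, scaled to sequencing depth), which allow levels to be compared between genes.

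In membrane fusion a vesicle SNARE (a VAMP) pairs with target SNAREs (a syntaxin and a SNAP protein) into a bundle that pulls the membranes together. STXBP proteins of the Munc18 type hold and template syntaxins, complexins clamp the bundle, synaptotagmins sense calcium through their C2 domains, and RAB3 and RAB27 GTPases tether vesicles. Neurons and endocrine cells use this set for regulated release, while every cell uses other syntaxins and VAMPs for traffic between the endoplasmic reticulum, Golgi, endosomes and lysosomes.

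The low values of short noncoding genes stepped by whole reads (at least 97.3% of the values used lay no more than 0.1 reads off) and gave denominators of 36.8 to 70.0 M reads per library. On a transcript of 1 kb, 3 reads then amount to 0.0429 to 0.0815 RPKM, a floor that covers counting error only. The third principal component of all tested genes (12.3% of the variance) set hESC 2, neuroectoderm 1 and mesendoderm 1 apart from the other libraries of their groups. Calls that change without these 3 libraries are given beside the results. As the 3 were picked from these data for lying apart, leaving them out can narrow the spread within groups. It also leaves fewer libraries per group. Without them 20 member calls were gained and 3 lost, and such gains are no independent support. Summed levels of marker genes followed the labels, though single markers did not all do so. The sum of 10 neuroectoderm markers was 344 to 437 RPKM in neuroectoderm, 8.17 to 8.42 RPKM in mesendoderm and 35.0 to 41.3 RPKM in hESC. That of 12 mesendoderm markers was 5.44 to 6.56 RPKM in neuroectoderm, 281 to 323 RPKM in mesendoderm and 23.4 to 25.7 RPKM in hESC. Of these markers, LHX2 was at 0.04 to 0.2 RPKM in neuroectoderm and 0.08 to 0.13 RPKM in hESC. FOXA2 was at 0 to 0.06 RPKM in mesendoderm and 0.2 to 0.26 RPKM in hESC. The sum of 9 pluripotency markers was 377 to 392 RPKM in neuroectoderm, 436 to 518 RPKM in mesendoderm and 981 to 1040 RPKM in hESC.

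Of the 64 members, 53 averaged at least 0.5 RPKM and were tested. Groups were compared with limma on log2(RPKM + 1), a scale that understates the change of low genes, and a gene was called where its adjusted p (Benjamini-Hochberg, over all tested genes) was under 0.05. Whether replicates were grown as independent cultures is not in the labels, and the spread behind the p-values may be partly or wholly technical. The summed level of all members was 270.0 ± 25.7 RPKM in neuroectoderm, 335 ± 7.37 RPKM in mesendoderm and 286 ± 7.4 RPKM in hESC (SD, n = 3 each). VAMP8 alone averaged 1.44 RPKM in neuroectoderm, 53.85 RPKM in mesendoderm and 8.05 RPKM in hESC. It thus made up most of the gap in the sum between mesendoderm and hESC. VAMP8, SYT7 and SYT4 were many times higher in mesendoderm than elsewhere, SYT11, SYT17, SYT9 and SYTL2 were highest in neuroectoderm, and SYT2, SYT3 and all RAB3 genes were highest in hESC. The core neuronal partners SNAP25 and CPLX1 to CPLX4 stayed under the minimum in every group.

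Against hESC, 14 of the 53 tested members were higher in neuroectoderm and 21 were lower, while of all 14473 tested genes 44.2% were called (21.9% higher and 22.3% lower). Without hESC 1 the number of higher members was 9. In mesendoderm 13 members were higher and 17 lower against hESC, beside 35.1% of all genes called (17.0% higher and 18.1% lower). That number of higher members fell to 8 without mesendoderm 1, 8 without hESC 1 and 7 without hESC 3, and after rescaling without small RNA genes the split was 9 higher and 20 lower. Between the lineages 15 members were higher and 12 lower in neuroectoderm than in mesendoderm, beside 48.1% of all genes (24.0% higher and 24.1% lower). A low gene enters the test only through a group where it is high, so these counts are a description of the members that passed the minimum. Without the 3 libraries that stood apart 18 members were higher and 21 lower in neuroectoderm than in hESC, 16 higher and 21 lower in mesendoderm than in hESC, and 18 higher and 15 lower in neuroectoderm than in mesendoderm. Groups did not overlap for 36 members between neuroectoderm and hESC (51.9% of all genes), for 41 between mesendoderm and hESC (54.7%) and for 30 between the lineages (57.2%).

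The median difference of the 53 members was -0.13 for neuroectoderm and -0.21 for mesendoderm against hESC on the log2 scale, beside -0.02 for all genes in both comparisons. Both comparisons share the hESC libraries. Of the members 13 were lower in both lineages, 5 were higher in both, and 6 were called in opposite directions. The other members called in at least 1 comparison bring the total to 44, and 9 members (SNAP23, SNAP47, STX10, STX16, STXBP3, STXBP5, SYTL4, VAMP1 and VAMP2) were called in none.

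**Figure D1:**
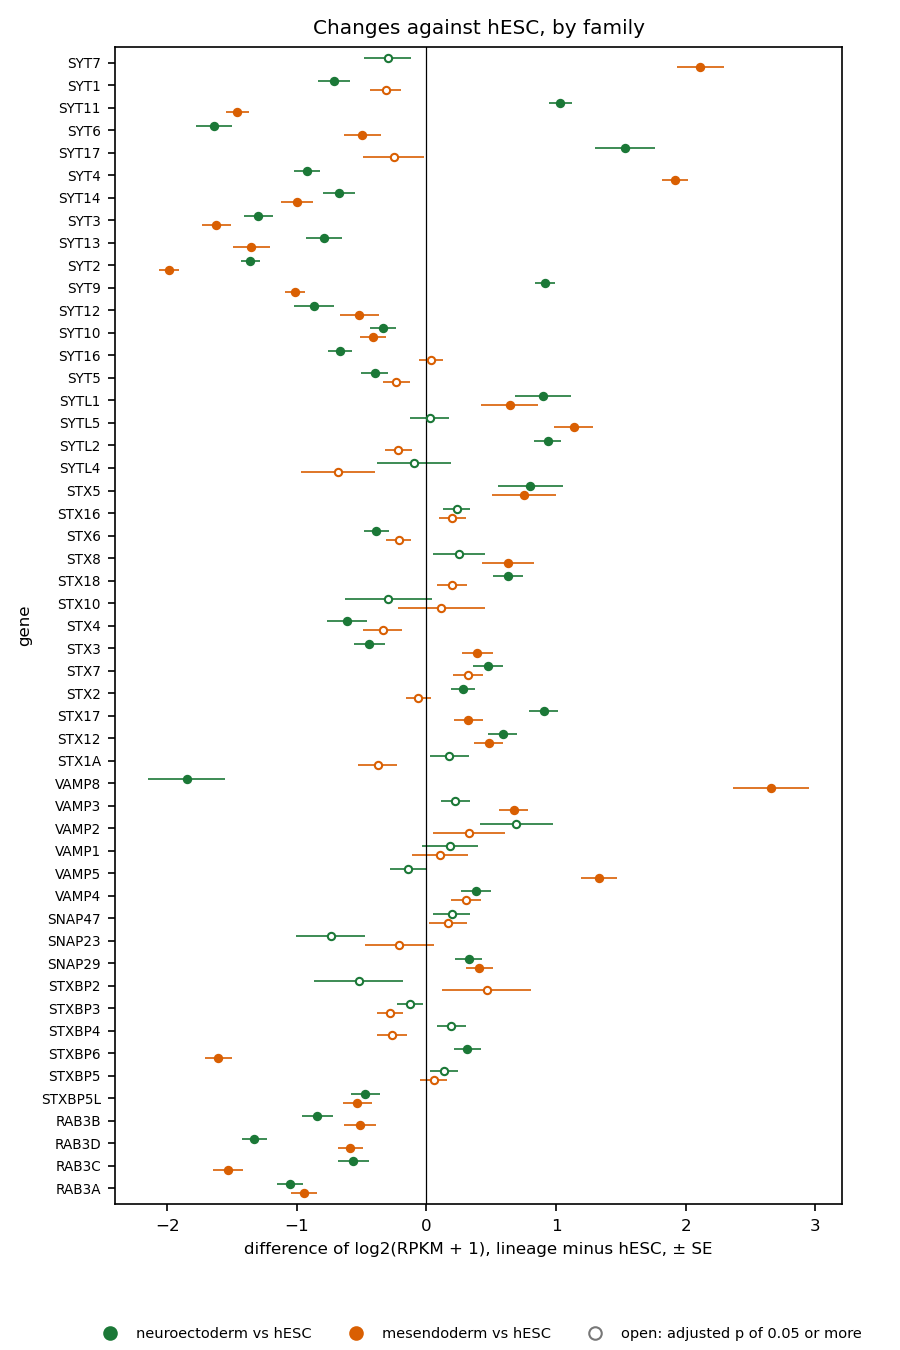
Difference of log2(RPKM + 1), neuroectoderm minus hESC (green) and mesendoderm minus hESC (orange), for 51 tested members by family, with bars of 1 SE; open circles did not pass the test. VAMP8, SYT4, SYT11 and SYT9 lie on opposite sides of 0 in the lineages, and all 4 RAB3 genes lie below 0 in both.

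Among the vesicle SNAREs, VAMP8 separated the groups most. VAMP8, or endobrevin, serves late endosomes, autophagosomes and regulated secretion in exocrine and other epithelial cells. It was at 0.76, 1.79 and 1.78 RPKM in neuroectoderm, at 43.7, 60.8 and 57.1 RPKM in mesendoderm and at 11.1, 4.6 and 8.41 RPKM in hESC, and no group overlapped another. VAMP8 fell in neuroectoderm (log2 difference -1.85 ± 0.29 (SE), adjusted p = 0.000935) and rose in mesendoderm (2.66 ± 0.29, adjusted p = 0.000145), a ratio of mean levels to hESC of 0.179 and 6.69. The direct difference between neuroectoderm and mesendoderm was -4.51 ± 0.29 (adjusted p = 2.85e-06), the widest of the 53 members. Without the 3 libraries that stood apart it was -4.43.

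VAMP5, first described in muscle and placed at the plasma membrane, lies next to VAMP8 on chromosome 2. It was at 0.77, 0.62 and 0.65 RPKM in neuroectoderm, at 2.94, 3.76 and 4.37 RPKM in mesendoderm and at 1.18, 0.65 and 0.76 RPKM in hESC. The mesendoderm libraries stood above all others, while neuroectoderm and hESC overlapped. VAMP5 rose in mesendoderm (1.33 ± 0.14, adjusted p = 0.000116), and neuroectoderm did not pass the test against hESC (-0.14 ± 0.14, adjusted p = 0.464). The starts of both genes are 6.8 kb apart, so the sequences before them are shown for comparison. Promoter sequences are from RefSeq (GRCh38.p14), a later build than the hg19 of the submitters' processing notes, and were matched for 52 of the 64 members. Each line gives the 250 bases before the start, 5′ to 3′ on the strand of the gene, with motif matches on either strand in capitals. The GC box was searched as GGGCGG, which SP and KLF factors are known to bind. The GATA motif was searched as AGATAA, known from the factors of that name. The homeodomain motif was searched as TAATCC, known from OTX and related factors.
VAMP8 (chr2:85577336-85577585, plus strand): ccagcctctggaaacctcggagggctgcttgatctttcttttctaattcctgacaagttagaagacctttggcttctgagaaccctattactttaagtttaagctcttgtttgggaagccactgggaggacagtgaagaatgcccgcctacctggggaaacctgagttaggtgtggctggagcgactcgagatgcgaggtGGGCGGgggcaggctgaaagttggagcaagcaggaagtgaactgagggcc
VAMP5 (chr2:85584181-85584430, plus strand): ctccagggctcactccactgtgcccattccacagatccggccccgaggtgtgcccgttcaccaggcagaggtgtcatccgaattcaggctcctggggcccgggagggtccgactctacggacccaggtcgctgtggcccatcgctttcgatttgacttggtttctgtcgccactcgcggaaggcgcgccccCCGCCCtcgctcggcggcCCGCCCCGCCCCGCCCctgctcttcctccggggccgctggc
The VAMP8 window held 1 match and the VAMP5 window 4, all of the GC box, and the last 3 of VAMP5 each share a base with the next. GC content was 52.8% before VAMP8 and 70.0% before VAMP5. Of 35116 promoters of the same length 42.6% held a GC box, 9.17% the GATA motif and 5.62% the homeodomain motif. Of the 52 matched members 36, 8 and 4 did. The larger set holds every promoter entry, whatever the level of its gene, while 1 entry was kept for each matched member. The shares of these unlike sets are therefore no measure of enrichment. These matches describe letters and say nothing of binding.

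VAMP3, or cellubrevin, which recycles endosomes in most cells, was at 8.92, 8.39 and 8.29 RPKM in neuroectoderm, 14.1, 11.2 and 11.0 RPKM in mesendoderm and 7.12, 7.63 and 6.75 RPKM in hESC. It rose in mesendoderm (0.67 ± 0.11, adjusted p = 0.00158) and lay lower in neuroectoderm than in mesendoderm (-0.45 ± 0.11, adjusted p = 0.0092). After rescaling without small RNA the difference between lineages lost its call (adjusted p = 0.0728). VAMP4 of the trans-Golgi network averaged 1.96 ± 0.21 RPKM in neuroectoderm, 1.80 ± 0.13 RPKM in mesendoderm and 1.28 ± 0.32 RPKM in hESC, and rose in neuroectoderm (0.38 ± 0.11, adjusted p = 0.0235). This call was lost without neuroectoderm 1, hESC 1 or hESC 3 (adjusted p 0.054 to 0.0886) and after rescaling without small RNA (0.153). VAMP4 was also called higher in mesendoderm without hESC 2 (0.0164) and without the 3 libraries that stood apart (0.0151), where VAMP3 was called higher in neuroectoderm (0.24, adjusted p = 0.0337).

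The synaptobrevins VAMP1 and VAMP2, the vesicle SNAREs of the synapse, did not pass the test in any comparison. VAMP2 was at 2.52, 5.85 and 6.21 RPKM in neuroectoderm, at 2.48, 3.89 and 3.78 RPKM in mesendoderm and at 2.83, 1.75 and 2.9 RPKM in hESC. Neuroectoderm 1, mesendoderm 1 and hESC 2 each held the lowest VAMP2 value of their group, and these are the libraries that stood apart. With all libraries VAMP2 differed by 0.69 ± 0.28 between neuroectoderm and hESC (adjusted p = 0.0749). Without those 3 it was higher in neuroectoderm (0.86, adjusted p = 0.000176) and in mesendoderm (0.32, adjusted p = 0.0182), and without neuroectoderm 1 alone the neuroectoderm value was 1.03 (adjusted p = 0.00241). Without them VAMP2 was also higher in neuroectoderm than in mesendoderm (0.54, adjusted p = 0.0014). The libraries left out held the lowest VAMP2 values, so these fits are no independent support for a difference. VAMP1 differed between neuroectoderm and hESC by 0.18 ± 0.22 over all libraries (adjusted p = 0.532) and by 0.47 without neuroectoderm 1 (adjusted p = 0.00794), which also gave a call between the lineages (0.36, adjusted p = 0.0244). Without the 3 libraries these differences of VAMP1 were 0.44 (adjusted p = 0.0192) and 0.34 (adjusted p = 0.0453).

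**Figure D2:**
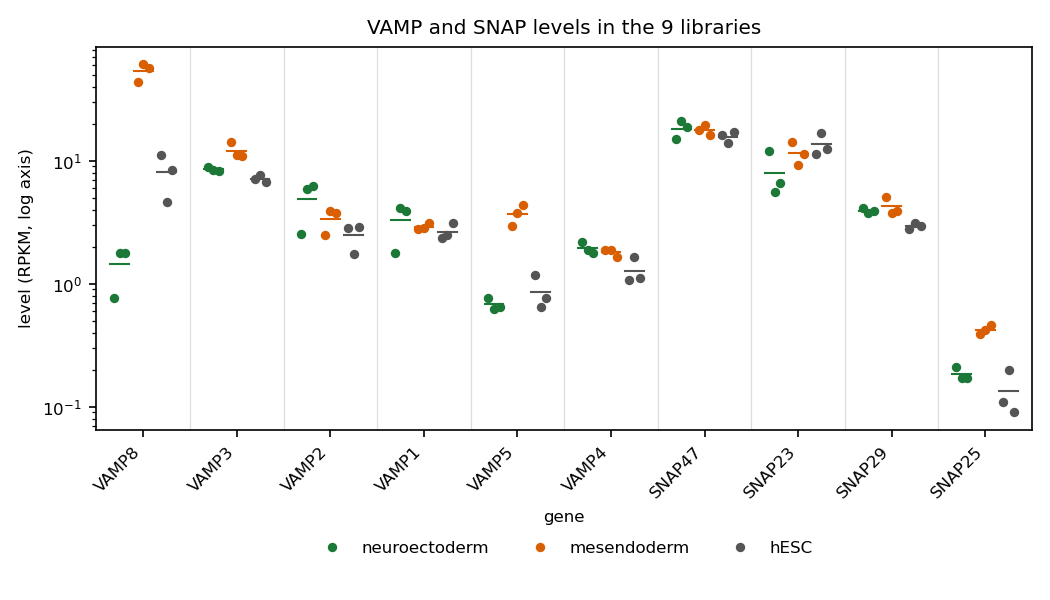
Levels of VAMP and SNAP genes in RPKM on a log axis; each point is 1 library and each bar the mean of a group of 3 libraries. VAMP8 and VAMP5 stand apart in mesendoderm, and SNAP25 lies under 0.5 RPKM in all 9 libraries.

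Of the SNAP proteins, which give the syntaxins their partner helices, the widely used SNAP47, SNAP23 and SNAP29 were tested. SNAP47 was the most abundant member of its family, at 14.95, 20.9 and 18.95 RPKM in neuroectoderm, 17.7, 19.6 and 16.1 RPKM in mesendoderm and 16.2, 14.0 and 17.1 RPKM in hESC, with overlapping groups. SNAP23, the partner of plasma membrane syntaxins outside neurons, was at 11.9, 5.56 and 6.59 RPKM in neuroectoderm, 14.3, 9.27 and 11.3 RPKM in mesendoderm and 11.4, 16.9 and 12.4 RPKM in hESC. It did not pass the test in neuroectoderm against hESC (-0.74 ± 0.27, adjusted p = 0.05), nor against mesendoderm (-0.53 ± 0.27, adjusted p = 0.133). Neuroectoderm 1 held the high value of its group, and without it SNAP23 was lower against hESC (-1.03, adjusted p = 0.00292) and against mesendoderm (-0.82, adjusted p = 0.00887). Without the 3 libraries that stood apart these were -0.87 (adjusted p = 0.000865) and -0.67 (adjusted p = 0.0027). With same-numbered neuroectoderm and mesendoderm libraries paired, SNAP23 was called lower in neuroectoderm (adjusted p = 0.0292).

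SNAP25, the plasma membrane SNARE of neurons and the target of several botulinum toxins, was at 0.21, 0.17 and 0.17 RPKM in neuroectoderm, 0.39, 0.42 and 0.46 RPKM in mesendoderm and 0.11, 0.2 and 0.09 RPKM in hESC. Its highest values were thus those of mesendoderm, all above every other library, but its mean stayed under the minimum for testing.

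Syntaxins had the highest summed level of the 8 families, at 130 ± 14.5 RPKM in neuroectoderm, 128 ± 3.83 RPKM in mesendoderm and 113 ± 4.64 RPKM in hESC. Of 14 tested syntaxins 6 rose and 3 fell in neuroectoderm, and 5 rose in mesendoderm, beside the shares of all genes given above. STX1A, of the presynaptic membrane, was at 2.13, 3.56 and 2.85 RPKM in neuroectoderm, 1.45, 1.62 and 1.72 RPKM in mesendoderm and 2.67, 1.88 and 2.61 RPKM in hESC. It was higher in neuroectoderm than in mesendoderm (0.55 ± 0.15, adjusted p = 0.015), and did not pass the test against hESC in either lineage (adjusted p = 0.386 in neuroectoderm and 0.086 in mesendoderm). In mesendoderm the STX1A difference of -0.38 against hESC was called in 6 of the alternatives, at adjusted p 0.0146 to 0.0488. Among them were the fits without neuroectoderm 1, without hESC 2 and without the 3 libraries that stood apart.

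At the plasma membrane of epithelial cells, STX3 marks the apical and STX4 the basolateral side. STX3 was at 5.51, 5.84 and 6.65 RPKM in neuroectoderm, 13.3, 10.6 and 10.6 RPKM in mesendoderm and 7.95, 9.21 and 8.31 RPKM in hESC, without overlap. It fell in neuroectoderm (-0.44 ± 0.12, adjusted p = 0.0154) and rose in mesendoderm (0.39 ± 0.12, adjusted p = 0.0315). The rise of STX3 lost its call without mesendoderm 1 or 3 or hESC 1 or 3 (adjusted p 0.0527 to 0.102) and under 3 other settings (0.0712 to 0.326). STX4 averaged 7.07 ± 1.32 RPKM in neuroectoderm, 8.72 ± 1.18 RPKM in mesendoderm and 11.3 ± 1.40 RPKM in hESC and fell in neuroectoderm (-0.61 ± 0.15, adjusted p = 0.0101). In mesendoderm STX4 did not pass (-0.34 ± 0.15, adjusted p = 0.119) but was called lower in 3 alternatives, among them without the 3 libraries that stood apart (0.0395 to 0.0457).

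STX17 drives fusion of autophagosomes with lysosomes together with SNAP29 and VAMP8, and the series title names autophagy. STX17 was at 7.45, 6.44 and 7.17 RPKM in neuroectoderm, 4.77, 4.35 and 3.98 RPKM in mesendoderm and 3.01, 3.87 and 3.01 RPKM in hESC. It rose in neuroectoderm (0.90 ± 0.11, adjusted p = 0.000201) and in mesendoderm (0.32 ± 0.11, adjusted p = 0.0495), and was higher in neuroectoderm than in mesendoderm (0.58 ± 0.11, adjusted p = 0.00234). The rise of STX17 in mesendoderm lost its call without any 1 of 7 libraries (all but neuroectoderm 1 and hESC 2), at adjusted p 0.0561 to 0.161, and under 6 other settings (0.056 to 0.414). SNAP29 was at 4.14, 3.75 and 3.94 RPKM in neuroectoderm, 5.05, 3.79 and 3.93 RPKM in mesendoderm and 2.79, 3.1 and 2.94 RPKM in hESC, higher in both lineages (0.33 ± 0.11, adjusted p = 0.0335, and 0.41 ± 0.11, adjusted p = 0.016). The SNAP29 call was lost in neuroectoderm without any 1 neuroectoderm library, hESC 1 or hESC 3 (adjusted p 0.0537 to 0.102) and under 5 other settings (0.0577 to 0.328). In mesendoderm the SNAP29 call was lost without hESC 1 or hESC 3 (0.0524 to 0.0569) and after rescaling without small RNA (0.219). The members of this trio therefore differed: in neuroectoderm STX17 rose while VAMP8 fell.

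STX5, which serves traffic between the endoplasmic reticulum and the Golgi, had the highest mean of the syntaxins over the 9 libraries, at 12.0, 25.5 and 20.7 RPKM in neuroectoderm, 17.5, 16.2 and 20.3 RPKM in mesendoderm and 11.1, 8.23 and 11.6 RPKM in hESC. It rose in neuroectoderm (0.80 ± 0.25, adjusted p = 0.028) and in mesendoderm (0.75 ± 0.25, adjusted p = 0.0436). The first STX5 call was lost without neuroectoderm 2 or 3 or hESC 1 or 2 (adjusted p 0.0556 to 0.0903), and the second without neuroectoderm 3 or any 1 mesendoderm or hESC library (0.0595 to 0.138). STX18 of the endoplasmic reticulum averaged 14.5 ± 0.61 RPKM in neuroectoderm, 10.5 ± 1.08 RPKM in mesendoderm and 9.05 ± 1.01 RPKM in hESC and rose in neuroectoderm (0.63 ± 0.11, adjusted p = 0.00189). STX18 was also higher in neuroectoderm than in mesendoderm (0.43 ± 0.11, adjusted p = 0.012, but 0.0567 without mesendoderm 3). STX12, of recycling endosomes, rose in neuroectoderm (0.59 ± 0.11, adjusted p = 0.00247) and in mesendoderm (0.48 ± 0.11, adjusted p = 0.00937). The STX12 call in mesendoderm was lost after rescaling without small RNA (0.127). STX7, of late endosomes, rose in neuroectoderm (0.48 ± 0.11, adjusted p = 0.00876, and 0.146 under the same rescaling), and did not pass in mesendoderm (0.32 ± 0.11, adjusted p = 0.058), where STX7 was called without neuroectoderm 1, without hESC 2 and without the 3 libraries that stood apart (0.037 to 0.0446).

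STX8, the endosomal partner of STX7, averaged 11.1 ± 1.93 RPKM in neuroectoderm, 14.7 ± 2.14 RPKM in mesendoderm and 9.29 ± 2.42 RPKM in hESC. It was called higher in mesendoderm (0.63 ± 0.20, adjusted p = 0.0363), but not without neuroectoderm 3, mesendoderm 1 or 2, or hESC 2 or 3 (0.055 to 0.113), nor without the 3 libraries that stood apart (0.0584). STX2, of the plasma membrane, was called higher in neuroectoderm against hESC (0.28 ± 0.09, adjusted p = 0.0373), a call lost without neuroectoderm 2 or 3, mesendoderm 2 or 3, or hESC 1 or 3 (0.0531 to 0.133) and under 6 other settings (0.0595 to 0.456). STX2 was also higher in neuroectoderm than in mesendoderm (0.35 ± 0.09, adjusted p = 0.0147), which was lost without neuroectoderm 3 or mesendoderm 3 (0.0552 to 0.0668) and after rescaling without small RNA (0.107). Of the trans-Golgi syntaxins, STX6 fell in neuroectoderm (12.4 ± 0.81 RPKM, against 16.5 ± 0.90 RPKM in hESC, -0.39 ± 0.10, adjusted p = 0.0105, and 0.0831 after quantile normalization). STX16 averaged 15.9 ± 1.13 RPKM in neuroectoderm, 15.5 ± 0.50 RPKM in mesendoderm and 13.4 ± 1.37 RPKM in hESC, and STX10 averaged 7.93 ± 3.93 RPKM in neuroectoderm, 9.96 ± 0.93 RPKM in mesendoderm and 9.28 ± 2.26 RPKM in hESC. Neither passed the test in any comparison. STX16 was called higher without the 3 libraries that stood apart (adjusted p = 0.00494 in neuroectoderm and 0.0149 in mesendoderm) and, in neuroectoderm, without neuroectoderm 1 (0.0409). STX11, known from killing by lymphocytes, and STX19 averaged at most 0.0767 RPKM in any group.

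Of 15 tested synaptotagmins 3 rose and 11 fell in neuroectoderm (44.2% of all genes were called), and 2 rose and 9 fell in mesendoderm (35.1% of all genes). Their summed level over 17 genes was 36.0 ± 3.72 RPKM in neuroectoderm, 40.6 ± 2.10 RPKM in mesendoderm and 45.7 ± 2.25 RPKM in hESC. In neuroectoderm SYT11 led the family by level, in mesendoderm SYT7, and in hESC SYT1 and SYT6, whose ranges overlap.

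**Figure D3:**
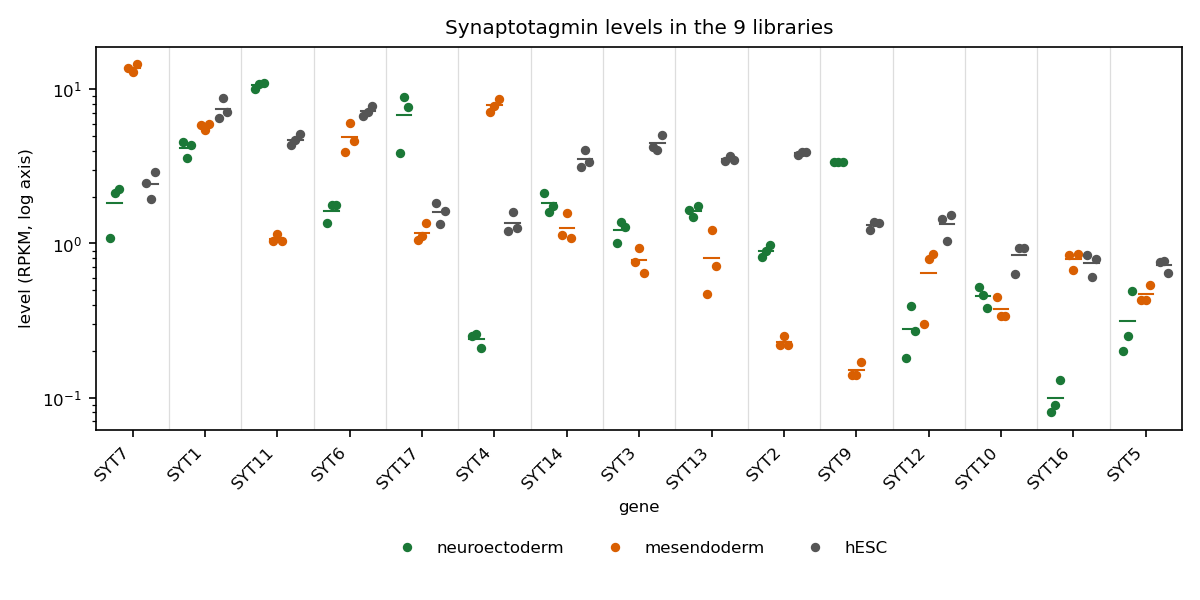
Levels of the 15 tested synaptotagmins in RPKM on a log axis; each point is 1 library and each bar the mean of a group of 3 libraries. SYT7 and SYT4 are highest in mesendoderm, SYT11, SYT17 and SYT9 in neuroectoderm, and SYT2, SYT3, SYT13 and SYT14 in hESC.

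SYT7 and SYT4 marked mesendoderm. SYT7, a slow sensor of high calcium affinity that acts in lysosome and granule exocytosis, was at 1.08, 2.14 and 2.26 RPKM in neuroectoderm, 13.9, 12.9 and 14.5 RPKM in mesendoderm and 2.48, 1.93 and 2.89 RPKM in hESC. It rose in mesendoderm to a ratio of 5.66 to hESC (2.11 ± 0.18, adjusted p = 2.9e-05), while neuroectoderm and hESC overlapped (-0.30 ± 0.18, adjusted p = 0.211). SYT4, of dense-core vesicles and the Golgi, lacks calcium binding in 1 of its C2 domains. It was at 0.25, 0.26 and 0.21 RPKM in neuroectoderm, 7.11, 7.82 and 8.68 RPKM in mesendoderm and 1.2, 1.6 and 1.26 RPKM in hESC. The 3 groups did not overlap: SYT4 fell in neuroectoderm (-0.92 ± 0.10, adjusted p = 0.0001) and rose in mesendoderm (1.91 ± 0.10, adjusted p = 1.75e-06), with ratios of 0.177 and 5.82 to hESC. Between the lineages the difference was -2.84 ± 0.10 (neuroectoderm minus mesendoderm, adjusted p = 9.28e-08).

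SYT11, SYT9 and SYT17 marked neuroectoderm. SYT11, a relative of SYT4 that does not sense calcium, was at 10.0, 10.9 and 11.1 RPKM in neuroectoderm, 1.04, 1.16 and 1.03 RPKM in mesendoderm and 4.33, 4.68 and 5.14 RPKM in hESC. It rose in neuroectoderm (1.03 ± 0.09, adjusted p = 2.29e-05) and fell in mesendoderm (-1.46 ± 0.09, adjusted p = 4.14e-06). SYT9, a fast calcium sensor of some neurons and endocrine cells, was at 3.36, 3.4 and 3.38 RPKM in neuroectoderm, 0.14, 0.14 and 0.17 RPKM in mesendoderm and 1.23, 1.38 and 1.36 RPKM in hESC. The mesendoderm libraries were the lowest and the neuroectoderm libraries the highest, with -1.01 ± 0.07 (adjusted p = 1.3e-05) and 0.92 ± 0.07 (adjusted p = 1.68e-05) against hESC. SYT17, an unusual synaptotagmin without a membrane anchor, was at 3.86, 8.89 and 7.7 RPKM in neuroectoderm, 1.06, 1.11 and 1.36 RPKM in mesendoderm and 1.82, 1.34 and 1.63 RPKM in hESC. It rose in neuroectoderm (1.53 ± 0.23, adjusted p = 0.000749) with neuroectoderm 1 lowest, and mesendoderm and hESC overlapped (-0.25 ± 0.23, adjusted p = 0.446).

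SYT4 and SYT11, the related pair called in opposite directions, and SYT9 are shown with the 250 bases before their starts, from RefSeq (GRCh38.p14) and with capitals as above.
SYT4 (chr18:43277491-43277740, minus strand): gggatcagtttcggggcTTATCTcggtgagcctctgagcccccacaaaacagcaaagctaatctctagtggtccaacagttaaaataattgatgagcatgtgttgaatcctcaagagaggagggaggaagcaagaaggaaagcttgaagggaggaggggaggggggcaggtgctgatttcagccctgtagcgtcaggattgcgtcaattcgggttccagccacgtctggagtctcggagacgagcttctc
SYT11 (chr1:155859317-155859566, plus strand): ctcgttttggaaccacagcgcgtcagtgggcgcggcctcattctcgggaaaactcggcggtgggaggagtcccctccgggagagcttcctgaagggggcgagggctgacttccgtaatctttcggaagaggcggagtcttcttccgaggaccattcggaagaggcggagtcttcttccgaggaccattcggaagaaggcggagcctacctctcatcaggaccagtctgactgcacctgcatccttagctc
SYT9 (chr11:7251654-7251903, plus strand): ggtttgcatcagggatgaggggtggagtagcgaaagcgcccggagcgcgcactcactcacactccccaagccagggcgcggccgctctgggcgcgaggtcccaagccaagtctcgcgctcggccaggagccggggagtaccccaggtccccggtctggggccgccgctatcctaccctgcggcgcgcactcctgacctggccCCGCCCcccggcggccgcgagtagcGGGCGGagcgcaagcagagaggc
The SYT4 window held a single match, to the GATA motif on the other strand, and the SYT9 window 2 GC boxes. The SYT11 window held 0 matches to these letters, and GC content was 52.8%, 60.0% and 73.2% before SYT4, SYT11 and SYT9. A stretch just after the SYT9 start was not found in a GENCODE v29 transcript of SYT9, unlike those of SYT4 and SYT11. The SYT9 window is therefore less certain. SYT7 and SYT17 were among the 12 members with no entry in the promoter table, as were CPLX1, SNAP25, STX17, STXBP4, SYT12, SYT13, SYT8 and SYTL2.

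The remaining synaptotagmins were highest in hESC or close to it. SYT2, a fast calcium sensor of synapses, was at 0.82, 0.9 and 0.98 RPKM in neuroectoderm, 0.22, 0.25 and 0.22 RPKM in mesendoderm and 3.77, 3.9 and 3.92 RPKM in hESC. It fell in neuroectoderm (-1.36 ± 0.08, adjusted p = 1.7e-06) and in mesendoderm (-1.98 ± 0.08, adjusted p = 3.41e-07). In GENCODE v29 its exons overlap those of PPP1R12B on the opposite strand, and reads of the pair cannot be told apart without strand. SYT3, a sensor of high calcium affinity, was at 1.01, 1.37 and 1.28 RPKM in neuroectoderm, 0.76, 0.93 and 0.64 RPKM in mesendoderm and 4.24, 4.07 and 5.08 RPKM in hESC. It fell in both lineages (-1.30 ± 0.11, adjusted p = 2.28e-05, and -1.62 ± 0.11, adjusted p = 8.62e-06). Its difference between the lineages (0.32 ± 0.11, adjusted p = 0.0404) was lost with same-numbered libraries paired (0.0671) and without neuroectoderm 2 or 3, mesendoderm 1 or 3, or hESC 1 (0.0572 to 0.141).

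SYT6, known from the acrosome reaction of sperm, was at 1.36, 1.78 and 1.77 RPKM in neuroectoderm, 3.95, 6.09 and 4.62 RPKM in mesendoderm and 6.74, 7.1 and 7.78 RPKM in hESC. It fell in neuroectoderm (-1.64 ± 0.14, adjusted p = 2.22e-05) and in mesendoderm (-0.49 ± 0.14, adjusted p = 0.0239). The call in mesendoderm was lost without mesendoderm 1 or 3 or hESC 2 or 3 (0.0549 to 0.085). SYT13, which does not bind calcium, was at 1.65, 1.48 and 1.74 RPKM in neuroectoderm, 0.47, 1.23 and 0.71 RPKM in mesendoderm and 3.41, 3.72 and 3.47 RPKM in hESC. SYT14 was at 2.12, 1.61 and 1.76 RPKM in neuroectoderm, 1.14, 1.57 and 1.08 RPKM in mesendoderm and 3.14, 4.07 and 3.36 RPKM in hESC. Both fell in neuroectoderm (SYT13 -0.79 ± 0.14, adjusted p = 0.00194; SYT14 -0.68 ± 0.12, adjusted p = 0.00211) and in mesendoderm (SYT13 -1.35 ± 0.14, adjusted p = 0.000108; SYT14 -1.0 ± 0.12, adjusted p = 0.000285). SYT14 did not pass between the lineages (0.32 ± 0.12, adjusted p = 0.0569), and was called in 4 alternatives, among them without mesendoderm 2 and without hESC 2 (0.0282 to 0.0495).

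SYT1, the main sensor for fast transmitter release, was at 4.54, 3.57 and 4.38 RPKM in neuroectoderm, 5.91, 5.45 and 5.99 RPKM in mesendoderm and 6.55, 8.78 and 7.13 RPKM in hESC. It fell in neuroectoderm (-0.71 ± 0.12, adjusted p = 0.00146) and did not pass the test in mesendoderm (-0.32 ± 0.12, adjusted p = 0.0766). SYT1 was lower in neuroectoderm than in mesendoderm (-0.40 ± 0.12, adjusted p = 0.0248), a call lost without neuroectoderm 2 or mesendoderm 1 or 3 (0.0659 to 0.0808) and under 4 other settings (0.0541 to 0.122). SYT16 was at 0.08, 0.09 and 0.13 RPKM in neuroectoderm, 0.84, 0.67 and 0.86 RPKM in mesendoderm and 0.84, 0.61 and 0.79 RPKM in hESC, and fell in neuroectoderm (-0.67 ± 0.09, adjusted p = 0.000367). SYT12, SYT10 and SYT5 averaged at most 1.34 RPKM in any group and fell in neuroectoderm (-0.87 ± 0.15 for SYT12, -0.33 ± 0.10 for SYT10 and -0.40 ± 0.10 for SYT5). SYT12 and SYT10 also fell in mesendoderm (-0.52 ± 0.15, adjusted p = 0.0285, and -0.41 ± 0.10, adjusted p = 0.0114), SYT12 not without mesendoderm 1, hESC 1 or hESC 3 (0.0728 to 0.0959). Between the lineages SYT12 was called lower in neuroectoderm without mesendoderm 1 (0.0128) and without the 3 libraries that stood apart (0.00879). SYT10 lost its call in neuroectoderm without neuroectoderm 2 or 3 or hESC 2 or 3 (0.0545 to 0.0845) and without the 3 libraries that stood apart (0.0598), and SYT5 without the 3 libraries that stood apart or after quantile normalization (0.073 to 0.0802). SYT15 and SYT8 were under the minimum, with SYT15 at 0.39 to 0.58 RPKM in neuroectoderm, 0.32 to 0.56 RPKM in mesendoderm and 0.39 to 0.53 RPKM in hESC.

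Synaptotagmin-like proteins bind RAB27 and tether secretory granules and lysosome-related vesicles, and their summed level was 8.45 ± 0.26 RPKM in neuroectoderm, 6.58 ± 0.44 RPKM in mesendoderm and 4.10 ± 0.31 RPKM in hESC. SYTL1 was at 3.03, 5.99 and 5.25 RPKM in neuroectoderm, 3.05, 3.92 and 4.15 RPKM in mesendoderm and 2.45, 1.45 and 2.2 RPKM in hESC. It rose in neuroectoderm (0.90 ± 0.22, adjusted p = 0.00887) and in mesendoderm (0.64 ± 0.22, adjusted p = 0.0477). The call in mesendoderm was lost without neuroectoderm 3 or any 1 mesendoderm or hESC library (0.0569 to 0.15). Without neuroectoderm 1 and without the 3 libraries that stood apart, SYTL1 was also called higher in neuroectoderm than in mesendoderm (0.0118 to 0.0337). SYTL2 was at 2.18, 1.82 and 2.09 RPKM in neuroectoderm, 0.46, 0.44 and 0.2 RPKM in mesendoderm and 0.6, 0.63 and 0.52 RPKM in hESC. It rose in neuroectoderm (0.94 ± 0.10, adjusted p = 0.000103) and lay higher there than in mesendoderm (1.15 ± 0.10, adjusted p = 2.11e-05).

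SYTL5 showed the reverse arrangement, at 0.74, 0.32 and 0.36 RPKM in neuroectoderm, 2.39, 2.29 and 1.82 RPKM in mesendoderm and 0.42, 0.67 and 0.25 RPKM in hESC. It rose in mesendoderm (1.14 ± 0.15, adjusted p = 0.000403). SYTL4, or granuphilin, of insulin granules, was at 1.7, 0.21 and 0.37 RPKM in neuroectoderm, 0.1, 0.07 and 0.12 RPKM in mesendoderm and 0.61, 1.28 and 0.48 RPKM in hESC. Neuroectoderm 1 and hESC 2 held its highest values. No comparison of SYTL4 was called with all libraries, but it was lower in mesendoderm than in hESC without neuroectoderm 1 (-0.68, adjusted p = 0.00795) and without the 3 libraries that stood apart (-0.50, adjusted p = 0.015). Between the lineages SYTL4 was called without neuroectoderm 2 (adjusted p = 0.0467). Exons of SYTL4 overlap those of SRPX2 on the opposite strand in GENCODE v29. SYTL3 averaged 0.43 ± 0.09 RPKM in neuroectoderm, 0.243 ± 0.13 RPKM in mesendoderm and 0.247 ± 0.04 RPKM in hESC, under the minimum.

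Of the syntaxin-binding genes, STXBP6, or amisyn, which competes with VAMPs for syntaxins, was at 3.11, 4.25 and 3.85 RPKM in neuroectoderm, 0.26, 0.29 and 0.19 RPKM in mesendoderm and 2.82, 2.95 and 2.6 RPKM in hESC. It fell in mesendoderm to a ratio of 0.0884 (-1.60 ± 0.11, adjusted p = 6.81e-06). In neuroectoderm it was called higher than in hESC (0.32 ± 0.11, adjusted p = 0.0382), a call lost without any 1 library but neuroectoderm 1 or mesendoderm 2 (0.0525 to 0.125) and under 5 other settings (0.0571 to 0.24).

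STXBP2, or Munc18-2, of epithelia and blood cells, was at 4.11, 11.9 and 9.95 RPKM in neuroectoderm, 15.3, 18.4 and 16.8 RPKM in mesendoderm and 15.1, 8.02 and 13.7 RPKM in hESC. Neuroectoderm 1 and hESC 2 were lowest in their groups. STXBP2 was lower in neuroectoderm than in mesendoderm (-0.99 ± 0.34, adjusted p = 0.0394), which was lost without neuroectoderm 1, hESC 3 or any 1 mesendoderm library (0.0551 to 0.107) and held without the 3 libraries that stood apart (-0.65, adjusted p = 0.00196). Against hESC STXBP2 was called lower in neuroectoderm only without those 3 (-0.37, adjusted p = 0.0215). STXBP5L, or tomosyn-2, an inhibitor of SNARE assembly, fell in neuroectoderm (0.697 ± 0.06 RPKM, -0.47 ± 0.11, adjusted p = 0.00902) and in mesendoderm (0.627 ± 0.12 RPKM, -0.53 ± 0.11, adjusted p = 0.00628), against 1.36 ± 0.33 RPKM in hESC. STXBP4 was higher in neuroectoderm than in mesendoderm (4.24 ± 0.46 against 2.82 ± 0.30 RPKM, 0.46 ± 0.12, adjusted p = 0.0103, and 0.0511 after rescaling without small RNA).

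STXBP3, or Munc18c, the partner of STX4, averaged 7.58 ± 0.63 RPKM in neuroectoderm, 6.70 ± 0.35 RPKM in mesendoderm and 8.38 ± 0.84 RPKM in hESC and passed in no comparison. It was called lower in mesendoderm than in hESC without neuroectoderm 1 and without the 3 libraries that stood apart (adjusted p 0.0331 to 0.0427). STXBP5, or tomosyn, averaged 2.08 ± 0.25 RPKM in neuroectoderm, 1.91 ± 0.22 RPKM in mesendoderm and 1.80 ± 0.25 RPKM in hESC. Its antisense neighbour STXBP5-AS1 averaged 0.173 ± 0.136 RPKM in neuroectoderm, 0.1 ± 0.07 RPKM in mesendoderm and 0.16 ± 0.0608 RPKM in hESC, under the minimum, and exons of the pair overlap.

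All 4 RAB3 GTPases fell in both lineages (22.3% of all genes were called lower in neuroectoderm and 18.1% in mesendoderm), with a summed level of 11.7 ± 0.40 RPKM in neuroectoderm, 13.4 ± 0.48 RPKM in mesendoderm and 25.7 ± 1.84 RPKM in hESC. RAB3A, the main isoform of synaptic vesicles, was at 0.26, 0.27 and 0.29 RPKM in neuroectoderm, 0.27, 0.38 and 0.48 RPKM in mesendoderm and 1.77, 1.36 and 1.81 RPKM in hESC (-1.05 ± 0.10, adjusted p = 4.35e-05, and -0.94 ± 0.10, adjusted p = 0.000116). RAB3D, of exocrine and other non-neuronal granules, was at 2.6, 3.11 and 3.02 RPKM in neuroectoderm, 5.87, 5.67 and 5.05 RPKM in mesendoderm and 8.3, 8.79 and 9.34 RPKM in hESC (-1.33 ± 0.10, adjusted p = 7.82e-06, and -0.59 ± 0.10, adjusted p = 0.00148). The decline of RAB3D was the larger in neuroectoderm, with a direct difference from mesendoderm of -0.74 ± 0.10 (adjusted p = 0.000233).

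RAB3C leaned the other way, at 3.34, 4.12 and 4.33 RPKM in neuroectoderm, 1.27, 1.86 and 1.44 RPKM in mesendoderm and 5.9, 6.39 and 6.51 RPKM in hESC. It fell by 0.56 in neuroectoderm (adjusted p = 0.00428) and by 1.53 in mesendoderm (adjusted p = 1.64e-05), and was higher in neuroectoderm than in mesendoderm (0.97 ± 0.12, adjusted p = 0.000156). RAB3B, with the highest mean of the family over the 9 libraries, was at 5.04, 4.29 and 4.37 RPKM in neuroectoderm, 6.53, 5.42 and 6.02 RPKM in mesendoderm and 7.64, 10.3 and 9.13 RPKM in hESC. It fell in both lineages (-0.84 ± 0.12, adjusted p = 0.000537, and -0.51 ± 0.12, adjusted p = 0.0105). RAB3B did not pass between the lineages (-0.33 ± 0.12, adjusted p = 0.0512), but passed in 9 alternatives (0.0292 to 0.0499). Among them were same-numbered libraries paired (0.041) and the fits without neuroectoderm 1, without hESC 1 or 2, and without the 3 libraries that stood apart.

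None of the 4 complexins was tested. Their summed level was 0.460 ± 0.12 RPKM in neuroectoderm, 0.170 ± 0.04 RPKM in mesendoderm and 0.857 ± 0.14 RPKM in hESC. CPLX2, with the highest mean over the 9 libraries, was at 0.14, 0.14 and 0.08 RPKM in neuroectoderm, 0.07, 0.05 and 0.09 RPKM in mesendoderm and 0.32, 0.45 and 0.34 RPKM in hESC. CPLX1, also a complexin of the brain, was at 0.1, 0.08 and 0.12 RPKM in neuroectoderm, 0.1, 0.08 and 0.01 RPKM in mesendoderm and 0.23, 0.15 and 0.11 RPKM in hESC. Several of these values, in particular those of mesendoderm, lie near the level of 3 reads per kilobase. The retinal complexins CPLX3 and CPLX4 averaged at most 0.287 RPKM in any group.

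**Figure D4:**
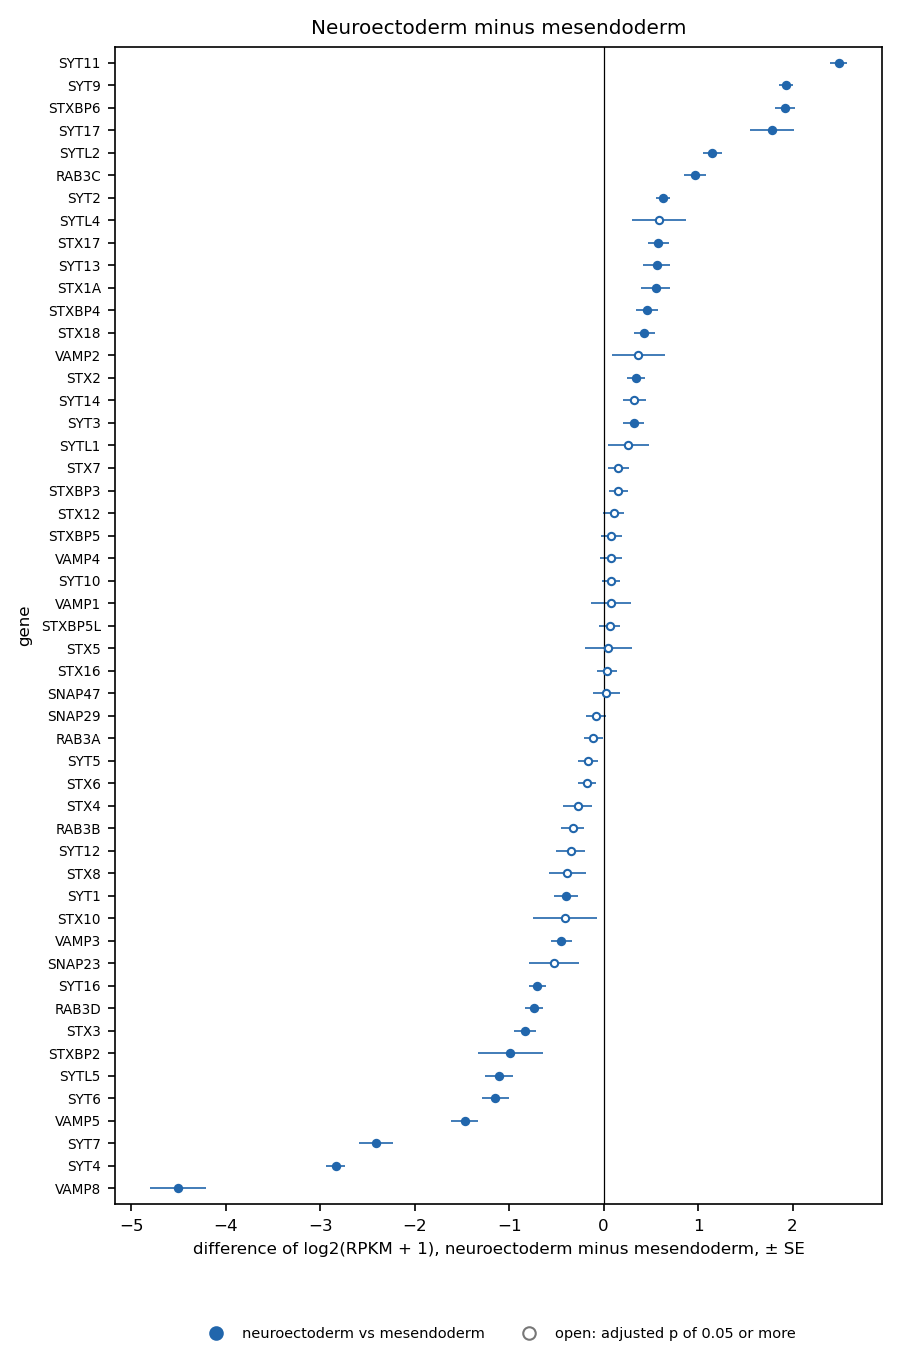
Difference of log2(RPKM + 1), neuroectoderm minus mesendoderm, for 51 tested members in order of size, with bars of 1 SE; open circles did not pass the test. SYT11, SYT9 and STXBP6 lie at the upper end, and VAMP8, SYT4 and SYT7 at the lower end.

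The classical release set of neurons did not move as a block. In neuroectoderm SYT1 and RAB3A fell, STX1A and VAMP2 did not pass the test, and SNAP25, CPLX1 and CPLX2 were under the minimum. Beside this, the summed level of 15 neuron markers was 30.3 to 55.2 RPKM in neuroectoderm, 26.6 to 43.9 RPKM in mesendoderm and 38.2 to 63.9 RPKM in hESC, and that of 6 neuroendocrine markers was 1.66 to 3.39 RPKM in neuroectoderm, 9.02 to 10.0 RPKM in mesendoderm and 36.3 to 52.0 RPKM in hESC. The neuroendocrine sum in hESC was mostly CHGA (26.6, 18.9 and 29.7 RPKM) and SCG3 (15.1, 12.6 and 15.9 RPKM). Of 10 trophoblast and amnion markers 9 were matched, summing to 1.34 to 1.54 RPKM in neuroectoderm, 90.1 to 143 RPKM in mesendoderm and 6.13 to 8.27 RPKM in hESC. Their part, and that of the neuroendocrine markers, in the changes of VAMP8, SYT7 or the RAB3 genes was not tested. In bulk RNA fewer cells of a type and less RNA per cell cannot be told apart.

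The other genes of the release pathway were read from 5 lists of partners, with 78 tested of 96 matched. In neuroectoderm 16 rose and 22 fell against hESC, beside 44.2% of all genes called (8 and 23 after rescaling without small RNA, 9 higher without neuroectoderm 3 and 10 without hESC 3). In mesendoderm 12 rose and 21 fell, beside 35.1% of all genes, and between the lineages 17 were higher and 17 lower in neuroectoderm, beside 48.1%. These shares also serve the lists that follow. The median difference of the 78 genes was -0.035 for neuroectoderm minus hESC, -0.08 for mesendoderm minus hESC and -0.05 between the lineages, beside -0.02, -0.02 and -0.01 for all genes.

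Of 27 tested priming and docking genes 6 rose and 8 fell in neuroectoderm, and 3 rose and 12 fell in mesendoderm. The 6 rises were 3 without neuroectoderm 2 or hESC 1, and 2 without neuroectoderm 3, without hESC 3 or after rescaling without small RNA. UNC13A, or Munc13-1, which primes synaptic vesicles, averaged 0.363 ± 0.08 RPKM in neuroectoderm, 2.05 ± 0.59 RPKM in mesendoderm and 11.5 ± 1.51 RPKM in hESC (-3.19 ± 0.15, adjusted p = 6.11e-07, and -2.05 ± 0.15, adjusted p = 1.21e-05). RIMS4, of the active zone, averaged 2.39 ± 0.55 RPKM in neuroectoderm, 3.09 ± 0.64 RPKM in mesendoderm and 15.1 ± 0.69 RPKM in hESC. UNC13C, a relative of UNC13A, took the other course: it averaged 0.0433 ± 0.03 RPKM in neuroectoderm, 2.37 ± 0.14 RPKM in mesendoderm and 0.0733 ± 0.03 RPKM in hESC, and rose in mesendoderm (1.65 ± 0.08, adjusted p = 1.04e-06). RIMS3 was higher in neuroectoderm than in mesendoderm (14.0 ± 2.27 against 3.64 ± 0.34 RPKM, 1.69 ± 0.13, adjusted p = 7.43e-06).

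Of 17 tested vesicle membrane genes 1 rose and 7 fell in neuroectoderm, and 3 rose and 7 fell in mesendoderm. The number that rose in neuroectoderm was 3 without neuroectoderm 1 and 2 without hESC 1 or without the 3 libraries that stood apart, and in mesendoderm it was 1 without mesendoderm 2 or hESC 2. SYP, the vesicle protein synaptophysin, averaged 0.60 ± 0.20 RPKM in neuroectoderm, 0.207 ± 0.04 RPKM in mesendoderm and 4.37 ± 0.76 RPKM in hESC and fell in both (-1.74 ± 0.13, adjusted p = 1.07e-05, and -2.14 ± 0.13, adjusted p = 4.63e-06). SYN3, a synapsin, fell in both as well, to 0.677 ± 0.14 RPKM in neuroectoderm and 1.06 ± 0.02 RPKM in mesendoderm, against 4.63 ± 0.21 RPKM in hESC. SV2C, a vesicle glycoprotein that serves as receptor for botulinum toxin A, rose in neuroectoderm (2.64 ± 0.69 RPKM, against 0.133 ± 0.04 RPKM in hESC, 1.67 ± 0.13, adjusted p = 1.24e-05). The vesicular monoamine transporter SLC18A2 fell in mesendoderm (0.21 ± 0.07 RPKM, against 1.85 ± 0.28 RPKM in hESC).

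The exocyst tethers vesicles to the plasma membrane in all cells, and its list also holds the GTPases RALA and RALB, which are not subunits. This list had 5 rises and 2 falls among 11 genes in neuroectoderm and 1 of each in mesendoderm. RALB was among the rises in neuroectoderm (0.87 ± 0.13, adjusted p = 0.000719). The falls in neuroectoderm numbered 1 without neuroectoderm 2, neuroectoderm 3 or hESC 2, and the rises in mesendoderm 2 without mesendoderm 2. EXOC5, the central subunit of the exocyst, averaged 22.9 ± 4.13 RPKM in neuroectoderm, 8.62 ± 0.37 RPKM in mesendoderm and 9.23 ± 1.77 RPKM in hESC (1.22 ± 0.16 in neuroectoderm against hESC, adjusted p = 0.000256). Among 17 SNAREs and Sec1/Munc18 proteins of other compartments 3 rose and 2 fell in neuroectoderm and 4 rose in mesendoderm. The rises in neuroectoderm numbered 1 without neuroectoderm 3 or hESC 1, the falls 1 without neuroectoderm 1, neuroectoderm 3 or any 1 hESC library, and the rises in mesendoderm 2 without any 1 mesendoderm library or hESC 3. Of the 6 tested C2 domain proteins outside the synaptotagmins, MYOF, a ferlin of membrane repair, averaged 1.75 ± 0.38 RPKM in neuroectoderm, 17.1 ± 4.13 RPKM in mesendoderm and 0.337 ± 0.08 RPKM in hESC and rose in both (1.03 ± 0.17, adjusted p = 0.00131, and 3.74 ± 0.17, adjusted p = 9.18e-07). Its relative DYSF fell in neuroectoderm (0.663 ± 0.21 RPKM, against 5.04 ± 0.56 RPKM in hESC, -1.86 ± 0.16, adjusted p = 2.46e-05).

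Of the 64 members 30 are listed with several transcripts, which share reads. For members called in a comparison, their other tested transcripts had the sign of the chosen one in all 30 cases for neuroectoderm minus hESC, all 19 for mesendoderm minus hESC and all 24 between the lineages. The members next to the minimum were SYT5 (0.501 RPKM over the 9 libraries) just inside and SYT15 (0.46 RPKM) just outside. In GENCODE v29, exons of SYT2, SYTL4, RAB3D, SNAP23, SYT16, SNAP47, STX3 and SNAP29 overlap those of genes on the opposite strand by 315 to 2111 bases. STXBP5, STXBP5-AS1, STX17, STX18, STXBP4, SYT1, SYT13, SYTL3 and VAMP1 have shorter overlaps of that kind, of 14 to 190 bases. On the same strand, exons of CPLX3, STX16, STX6, STX3, VAMP2, STXBP2, SYT17, RAB3D and SYT7 overlap other genes by 49 to 1666 bases. The use of strand in counting is not known, and strand would not separate overlaps on the same strand. The levels of all these genes may therefore include reads of their neighbours and are uncertain to that extent.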

How the data were processed

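The deposited table holds RPKM values that the authors calculated per RefSeq transcript, listed to 2 decimals for 9 libraries of 1 line (3 per group). Per the submitters' processing notes, TopHat2 2.0.13 and Bowtie2 and the build hg19 were used; for the counting tool and strand nothing is given in the sources used here. The members and lists were chosen with earlier results of these data known.

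Of 38759 transcript rows, the one with the highest mean was kept for each of 21417 symbols, and 14473 symbols averaging at least 0.5 RPKM were tested in R 4.3.3 with limma 3.58.1 (trended variance, log2(RPKM + 1), all 9 libraries, no replicate block, Benjamini-Hochberg adjustment), after a check on simulated data. Library denominators were 36.8 to 70.0 M reads. Values in all libraries are given for members called in a comparison with a log2 difference of at least 1, groups that do not overlap and at least 1 RPKM in the higher group, for the highest member of each family, for classical release genes, and for STX3, STX5, STX17, SNAP29, SNAP23, VAMP3, SYT1 and others chosen after their values were seen. Up to 3 called partner genes per list and comparison could be named. Counts cover all tested members, and some members are not reported singly here.

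Replicate numbers recur across groups. Deviations from group means of same-numbered neuroectoderm and mesendoderm libraries correlated at 0.392, 0.247 and 0.229, so that pair of groups was also fitted with the number as a block. Between neuroectoderm and hESC the correlations were -0.616, -0.738 and 0.401, and between mesendoderm and hESC -0.485, -0.295 and 0.0583, and those were not treated as paired. Differently numbered neuroectoderm and mesendoderm libraries correlated at -0.371 to 0.241. Neuroectoderm 1 and hESC 2, also differently numbered, correlated at 0.787. These values do not settle whether a number marks a shared culture. Alternatives changed the pseudocount, filter, scaling, transcript choice, libraries and block. The fit of neuroectoderm and mesendoderm alone with the block was added after seeing the data. The 3 libraries that stood apart were also picked from these data.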

Additional observations from a re-analysis of the deposited data

Results flagged for a closer look

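In 6 members the lineages differed from hESC in opposite directions, both differences being called. The direct difference between the lineages is the gap between those differences, from the same fit. Its call therefore follows from the opposite calls and adds no separate support. Neuroectoderm minus mesendoderm was -4.51 for VAMP8, -2.84 for SYT4 and -0.83 for STX3 on the log2 scale, and 2.49 for SYT11, 1.93 for SYT9 and 1.92 for STXBP6. The comparisons with hESC share the hESC libraries. The calls of STX3 in mesendoderm and STXBP6 in neuroectoderm against hESC were lost when single libraries were left out.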

How the results depend on the processing

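Of 92 calls of members, 67 held in every alternative run for them (20 to 22 per call), 25 were lost in at least 1, and 0 reversed; 22 uncalled differences passed in at least 1. Members higher in mesendoderm numbered 13, but 8 with the replicate block over all groups and 7 to 14 with single libraries left out; those higher in neuroectoderm numbered 14, and 9 to 15 with single libraries left out. Between the lineages the block over neuroectoderm and mesendoderm libraries gave 14 higher and 14 lower members and changed the calls of SYT3, RAB3B and SNAP23 alone. Partners higher in neuroectoderm numbered 16, but 8 after rescaling without small RNA and 9 to 20 with single libraries left out; partners lower in mesendoderm numbered 21, but 13 at a minimum of 1 RPKM, where fewer genes are tested. Leaving out small RNA moved the median of all genes to -0.12 in both lineages against hESC. The cause of the other shifts was not tested. Values near or under the level of 3 reads per kilobase, as in CPLX4 and STX19, rest on few reads.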
